A study of Arabidopsis thaliana with 4 samples.

Results

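Indole glucosinolate synthesis is described here through 10 Arabidopsis thaliana genes, taken by their locus codes from a table of 31346 genes. They are the transcription factor genes MYB34, MYB51 and MYB122, the core pathway genes CYP79B2, CYP79B3, CYP83B1, SUR1 and SOT16, and the ring modification genes CYP81F2 and IGMT1. All 10 are in the table, and 9 passed the filter on low counts and were tested. RNA selected for poly(A) tails was sequenced from whole seedlings, 6 d old. The 2 ClpD-OE libraries come from line #5, which overexpresses ClpD in a wild-type background and which the series text calls constitutive, and the 2 WT libraries come from the wild type without that transgene. Only 1 overexpressing line was sampled, so the transgene and other traits of the line cannot be told apart, and the sources used here do not name the promoter. Replicates carry a number only, so the p-values describe the spread between these libraries, which may be technical.

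Indole glucosinolates are sulfur-rich defence compounds of the cabbage order that are built from tryptophan and split by myrosinases when tissue is damaged. CYP79B2 and CYP79B3 turn tryptophan into indole-3-acetaldoxime, a branch point that also feeds camalexin and some auxin. CYP83B1 oxidises the aldoxime, glutathione is added, the C-S lyase SUR1 trims the conjugate, a glucosyltransferase adds glucose, and SOT16 adds the sulfate group taken from the donor PAPS. CYP81F2 and IGMT1 then hydroxylate and methylate the indole ring. The MYB factors switch these genes on, together with MYC factors of the jasmonate pathway.

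Total counts were 23294451 and 22764333 in ClpD-OE replicates 1 and 2, and 20800842 and 21896988 in WT replicates 1 and 2. The 10 genes took 0.0738% and 0.0532% of all counts in the ClpD-OE libraries and 0.0740% and 0.0660% in the WT libraries. CLPD itself stood at 1670 and 1870 normalized CPM (counts scaled to library size with TMM factors) in ClpD-OE and at 151 and 147 in WT, and was called higher (log2 fold change 3.57, SE 0.0971, edgeR adjusted p = 0.00283). Of 10 root marker genes, 5 were tested, with 4 above 0 and a median log2 fold change of 0.78. An unadjusted edgeR p under 0.05 was found for 28.2% of all genes tested and for 3 of these 5. Of these 1, PRP3, was called higher (19 and 19 counts in ClpD-OE, 0 in both WT libraries). PRP3 passed the filter on low counts through its ClpD-OE libraries alone, so it could not have been called lower. It is among the 4 above 0 and the 3 of 5, and it lost its call without WT replicate 1 or 2. IRT1 was at 0 in every library, and the summed level of the 10 was 11.1 and 13.2 CPM in ClpD-OE and 7.37 and 10.1 CPM in WT. For 6 stomatal lineage markers the sums were 58.0 and 58.6 CPM in ClpD-OE and 57.7 and 59.3 CPM in WT, with 0 called by edgeR or DESeq2 and 1 at an unadjusted p under 0.05. The part of tissue makeup in the results was not tested, and in RNA of whole seedlings fewer cells of a type and less RNA per cell cannot be told apart.

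In ClpD-OE seedlings, transcripts of the core pathway genes SOT16, CYP79B3 and CYP83B1 lay below both WT libraries, at log2 fold changes of -0.97, -0.95 and -0.53. Those of SUR1 and MYB34 also lay below both WT libraries, at -0.25 and -0.89. With edgeR's quasi-likelihood test, 0 of the 9 tested genes passed a Benjamini-Hochberg adjusted p under 0.05, against 8.19% of all 18940 genes tested (3.91% lower and 4.29% higher). SOT16 came nearest, at an adjusted p of 0.0518. DESeq2, a second count test, called SOT16, CYP79B3 and CYP83B1 lower, 3 of 9 where it called 11.1% of all genes and 6.10% as lower. Without WT replicate 2, edgeR gave log2 fold changes of -1.17, -1.34 and -1.34 for SOT16, CYP79B3 and MYB34. Without WT replicate 1 it gave -0.73, -0.41 and -0.23 for the same genes. With either ClpD-OE library left out it called 0 genes of the whole table, the members and every list below included. At an unadjusted edgeR p under 0.05 there were 3 of 9, and 28.2% of all genes. The ClpD-OE and WT libraries did not overlap for 5 of the 9 genes, and for 59.9% of all genes tested. The median log2 fold change over the 9 genes was -0.25, with 8 below 0 and 1 above, while the median over all tested genes was 0.0011.

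**Figure D1:**
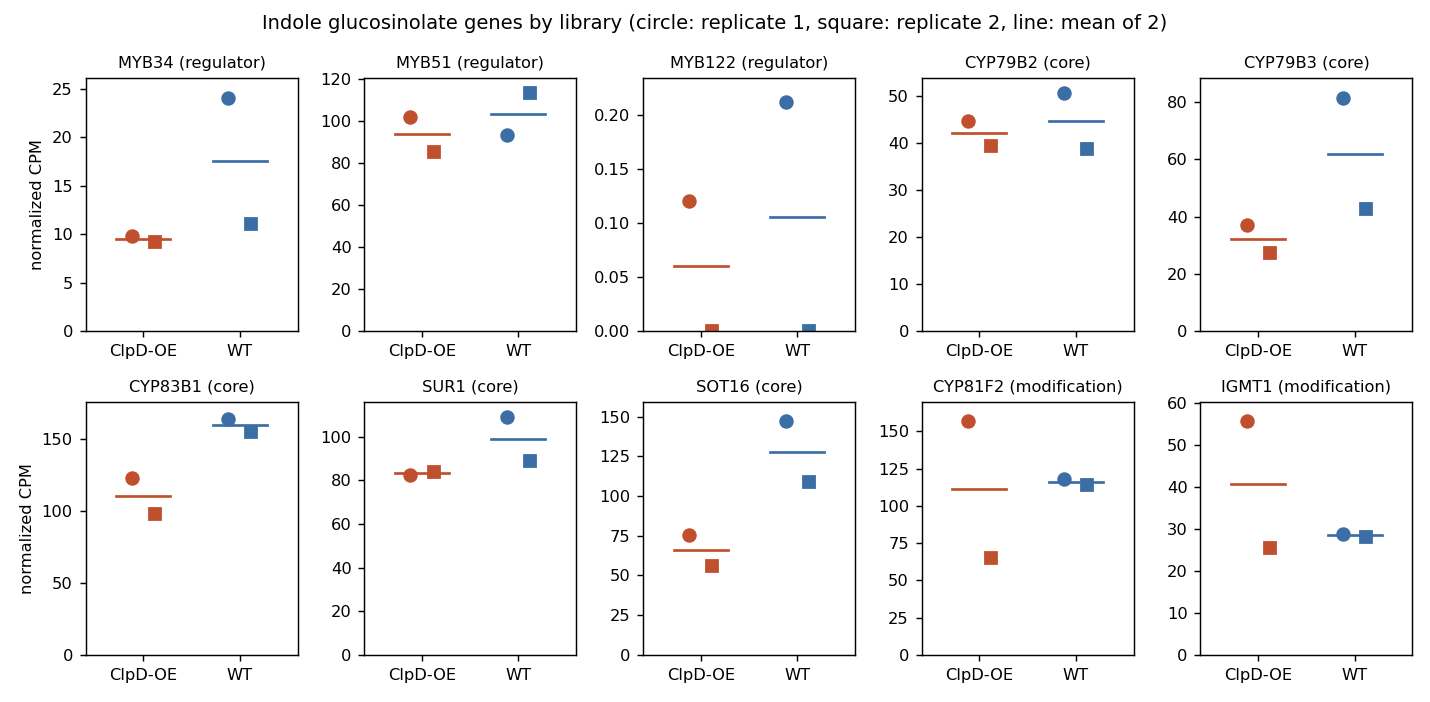
Normalized CPM of each of the 10 genes (y axis, linear, starting at 0, its range differing between panels) in ClpD-OE and WT seedlings (x axis). Circles are replicate 1, squares replicate 2 and lines the mean of the 2 libraries. SOT16, CYP83B1, CYP79B3, SUR1 and MYB34 lay lower in both ClpD-OE libraries than in either WT library. MYB34 stood high in WT replicate 1 alone, and CYP81F2 and IGMT1 stood high in ClpD-OE replicate 1 alone.

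Among the regulators, MYB51 (AT1G18570, chromosome 1), the main indole glucosinolate factor of shoots, had 102 and 85.2 CPM in ClpD-OE and 93.1 and 113 CPM in WT. The groups overlapped, and the log2 fold change was -0.13 (SE 0.140, 95% interval -0.49 to 0.22, edgeR adjusted p = 0.578). MYB34 (AT5G60890, chromosome 5), which acts mainly in roots and also raises tryptophan synthesis, had 9.83 and 9.17 CPM in ClpD-OE and 24.1 and 11.1 CPM in WT. WT replicate 1 thus stood apart, 2.16-fold above WT replicate 2, while the ClpD-OE libraries differed 1.07-fold. The log2 fold change of MYB34 was -0.89 (SE 0.362, edgeR adjusted p = 0.188). It was -0.23 without WT replicate 1, and -1.34 without WT replicate 2, where edgeR called MYB34 lower (adjusted p = 0.00989). MYB122 (AT1G74080, chromosome 1), a minor factor of the same group, had 3 and 0 counts in ClpD-OE and 4 and 0 counts in WT, and was removed by the filter on low counts. With no filter it was not called (edgeR adjusted p = 0.841). A count of 0 allows up to 3 counts, or 0.121 CPM in ClpD-OE replicate 2 and 0.145 CPM in WT replicate 2. Such limits cover counting error only, since amplified reads that carry no molecular identifier cannot be counted as separate molecules.

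The paralogs at the entry to the pathway gave different values. CYP79B3 (AT2G22330, chromosome 2) had 36.9 and 27.3 CPM in ClpD-OE and 81.3 and 42.6 CPM in WT. Both ClpD-OE libraries lay below both WT libraries, but the WT libraries differed 1.91-fold from each other. The log2 fold change was -0.95 (SE 0.328, 95% interval -1.78 to -0.12, edgeR adjusted p = 0.140, DESeq2 adjusted p = 0.0265). Without WT replicate 1 it was -0.41, and without WT replicate 2 it was -1.34 and called lower by edgeR (adjusted p = 0.0200). CYP79B2 (AT4G39950, chromosome 4) had 44.7 and 39.4 CPM in ClpD-OE and 50.6 and 38.7 CPM in WT, with overlapping groups. Its log2 fold change was -0.086 (SE 0.154, 95% interval -0.48 to 0.30, edgeR adjusted p = 0.759), which turned to 0.12 without WT replicate 1 and to 0.0016 without ClpD-OE replicate 2. The ratio of CYP79B3 to CYP79B2 within a library, in FPKM and so per length, was 0.816 and 0.683 in ClpD-OE and 1.59 and 1.09 in WT. CYP79B3 was therefore the lower of the pair in both ClpD-OE libraries and the higher in both WT libraries, a comparison chosen after the values were seen and given without a test.

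CYP83B1 (AT4G31500, chromosome 4), the cytochrome P450 that commits the aldoxime to glucosinolates, had 123 and 97.8 CPM in ClpD-OE and 164 and 155 CPM in WT. The groups did not overlap. The log2 fold change was -0.53 (SE 0.129, 95% interval -0.86 to -0.20, edgeR adjusted p = 0.0712, DESeq2 adjusted p = 0.0254), and the value lay between -0.70 and -0.37 with any 1 library left out. SUR1 (AT2G20610, chromosome 2), the C-S lyase shared with the methionine-derived branch, had 82.6 and 83.8 CPM in ClpD-OE and 109 and 88.9 CPM in WT. Its ClpD-OE libraries were nearly equal and lay under both WT libraries, at a log2 fold change of -0.25 (SE 0.119, 95% interval -0.56 to 0.048, edgeR adjusted p = 0.237). On library totals in place of TMM scaling, SUR1 was at -0.026, where the median of all genes was 0.23.

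SOT16 (AT1G74100, chromosome 1), the sulfotransferase of the last core step, had 75.3 and 56.2 CPM in ClpD-OE and 147 and 109 CPM in WT. Mean levels were 65.7 ± 13.5 CPM in ClpD-OE and 128 ± 27.0 CPM in WT (SD, n = 2 each). The groups did not overlap, and the 2 libraries differed 1.34-fold within ClpD-OE and 1.35-fold within WT, with replicate 1 above replicate 2 in each. The log2 fold change was -0.97 (SE 0.202, 95% interval -1.48 to -0.45, edgeR adjusted p = 0.0518). DESeq2 called SOT16 lower (adjusted p = 0.00051), as did edgeR on library totals (-0.74, adjusted p = 0.0491) and without WT replicate 2 (-1.17, adjusted p = 0.0252). Without WT replicate 1 it was -0.73 (adjusted p = 0.126).

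**Figure D2:**
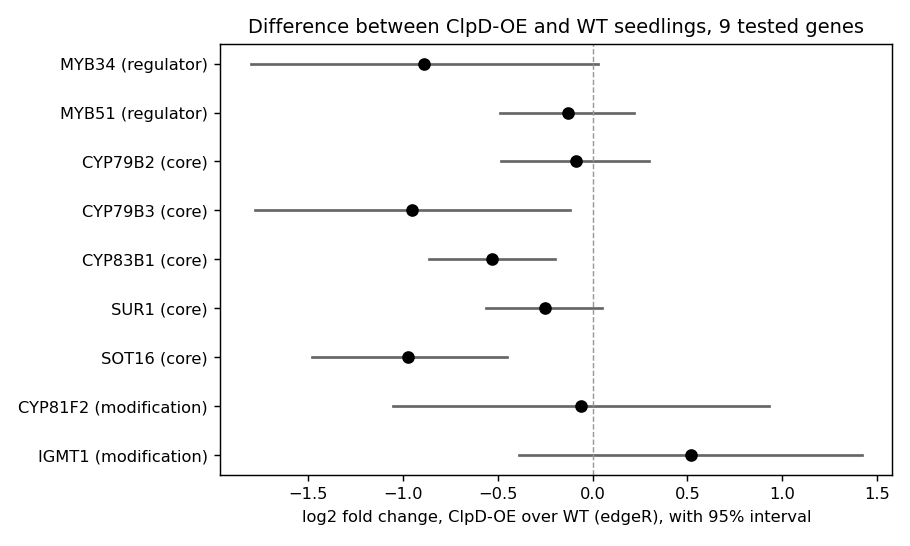
Log2 fold change of ClpD-OE over WT (x axis) for the 9 tested genes in pathway order (y axis), with points for edgeR estimates and lines for their 95% intervals before any adjustment over genes. The intervals of CYP79B3, CYP83B1 and SOT16 lie below 0, and those of all the other genes shown span 0. Among these, MYB34 runs from -1.80 to 0.031, CYP81F2 from -1.05 to 0.93 and IGMT1 from -0.39 to 1.42.

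The ring modification genes were set apart by a difference between the ClpD-OE libraries. CYP81F2 (AT5G57220, chromosome 5), the P450 that hydroxylates the indole ring and whose product is needed for defence against fungi, had 157 and 65.1 CPM in ClpD-OE and 118 and 114 CPM in WT. ClpD-OE replicate 1 was above both WT libraries and ClpD-OE replicate 2 below both. Its log2 fold change was -0.060 (SE 0.392, edgeR adjusted p = 0.941), and it was -0.83 or 0.44 without ClpD-OE replicate 1 or 2. IGMT1 (AT1G21100, chromosome 1), the methyltransferase that follows, had 55.9 and 25.6 CPM in ClpD-OE and 28.9 and 28.1 CPM in WT. The log2 fold change was 0.52 (SE 0.357, edgeR adjusted p = 0.403), and it was -0.15 or 0.97 without ClpD-OE replicate 1 or 2. The ClpD-OE libraries thus differed 2.41-fold in CYP81F2 and 2.18-fold in IGMT1, and the WT libraries 1.03-fold in each.

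IGMT1 has close copies beside it on chromosome 1. By RefSeq's annotation of TAIR10.1, its coding sequence matched those of IGMT2, IGMT3 and IGMT4 at 92.5%, 93.0% and 93.0% of aligned bases. Of its windows of 50 bases, 3.6%, 7.6% and 9.4% occurred unchanged in those copies, so reads could be divided among them in the authors' counting and the IGMT1 value is uncertain. IGMT2 had 34.9 and 10.8 CPM in ClpD-OE and 30.6 and 23.4 CPM in WT (log2 fold change -0.24, edgeR adjusted p = 0.809). IGMT3 had 55.2 and 20.2 CPM in ClpD-OE and 29.4 and 29.1 CPM in WT, the same order of libraries as in IGMT1. IGMT4 was far more abundant, at 776 and 659 CPM in ClpD-OE and 619 and 731 CPM in WT. With the 4 copies summed into 1 gene, a setting chosen after the data were seen, the log2 fold change was 0.11. No other coding sequence compared with a member's shared a window of 50 bases with it. These comparisons were CYP79B2 with CYP79B3 (80.6% of aligned bases alike), SOT16 with SOT17 and SOT18 (78.6% and 80.0%), the 3 MYB genes among themselves, CYP81F2 with CYP81F1, CYP81F3 and CYP81F4, and CYP83B1 with CYP83A1. None of the 10 genes overlaps another gene on either strand in that annotation.

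**Figure D3:**
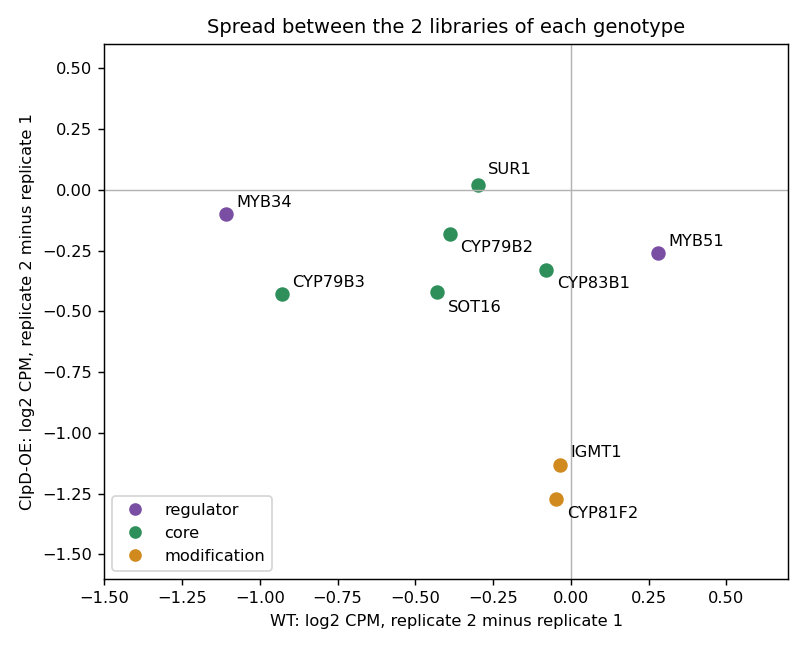
Log2 CPM of replicate 2 minus replicate 1 in WT (x axis) and in ClpD-OE (y axis) for the 9 tested genes, coloured by role. MYB34 and CYP79B3 lie far left, at -1.11 and -0.93 in WT, and CYP81F2 and IGMT1 lie far down, at -1.27 and -1.13 in ClpD-OE.

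At the median, the libraries of 1 genotype differed more in these genes than over all tested genes. The median size of the log2 difference between replicates was 0.33 in ClpD-OE and 0.30 in WT over the 9 genes, and 0.14 and 0.18 over all tested genes. The median signed difference of replicate 2 from replicate 1 was -0.33 in ClpD-OE and -0.30 in WT, so that replicate 1 carried the higher level of most of the 9 genes in each genotype. The exceptions were SUR1 in ClpD-OE, at 0.020, and MYB51 in WT, at 0.28. For the sulfate genes described below, the median size was 0.41 in ClpD-OE and 0.37 in WT, and the signed median -0.41 and -0.37. Signed medians were -0.072 and -0.39 for other indole genes, -0.0038 and -0.43 for aliphatic genes, and -0.16 and -0.083 for tryptophan. They were -0.18 and -0.17 for MYB-related factors, -0.031 and -0.19 for breakdown, -0.19 and 0.012 for camalexin, and 0.30 and -0.41 for auxin.

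Per length, in the authors' FPKM, SOT16 was the most abundant of the 10 transcripts in WT (87.5 ± 16.0 FPKM, SD, n = 2) and the fourth in ClpD-OE (52.5 ± 10.3). CYP83B1 was the second in both, with 62.6 ± 9.57 FPKM in ClpD-OE and 77.3 ± 0.903 in WT. CYP81F2 had the highest mean in ClpD-OE, at 67.5 ± 38.9 FPKM, and 60.4 ± 0.244 in WT. MYB51 followed with 56.6 ± 6.75 FPKM in ClpD-OE and 53.3 ± 8.66 in WT, and SUR1 with 50.1 ± 0.927 in ClpD-OE and 51.1 ± 6.11 in WT. Each of these 5 genes differed from the next in the order of means, within a genotype, by less than the larger SD of the pair, except CYP83B1 from CYP81F2 in WT. IGMT1 (38.8 and 18.0 FPKM in ClpD-OE, 16.9 and 17.1 in WT), CYP79B2 (22.8 ± 1.81 in ClpD-OE, 20.7 ± 3.33 in WT) and CYP79B3 (17.2 ± 3.52 in ClpD-OE, 28.3 ± 11.8 in WT) formed a lower tier. MYB34 stood at 5.76 ± 0.232 FPKM in ClpD-OE and 9.08 ± 4.50 in WT, so that MYB51 was the leading regulator transcript in each library, and MYB122 was at most 0.123 FPKM.

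The authors' deposited table gives its own test of ClpD-OE over WT. In it, SOT16 (FDR = 0.000603), CYP83B1 (FDR = 0.0301) and CYP79B3 (FDR = 0.0314) passed 0.05, 3 of the 10 genes where 6.55% of all listed genes passed. That share is over all 31346 listed genes, of which 23195 had a count in any library. It is therefore not on the same base as the shares of tested genes above. SOT16, CYP83B1 and CYP79B3 are also the genes that DESeq2 called here. Both tests used the same libraries, and the submitters' processing notes also name DESeq2, so the match is not independent evidence. The log2 fold changes in the authors' deposited table were -0.74, -0.30 and -0.72, and they come from FPKM, which carry no TMM scaling. MYB34 had an FDR of 0.124 there.

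Other genes of the indole branch and the shared core were not called. Of 12 tested genes, 0 passed in edgeR, against 8.19% of all genes tested, and 2 passed in DESeq2, against 11.1%. At an unadjusted edgeR p under 0.05 there were 7, against 28.2% of all genes. The median log2 fold change was -0.16, and it was -0.071 or -0.16 without WT replicate 1 or 2. UGT74B1, the glucosyltransferase before SOT16, had 45.8 and 43.9 CPM in ClpD-OE and 77.8 and 59.7 CPM in WT (log2 fold change -0.62, SE 0.142, edgeR adjusted p = 0.0631, DESeq2 adjusted p = 0.0162). Both of its ClpD-OE libraries lay below both WT libraries, as for SOT16, but the groups did not overlap for 59.9% of all genes tested. Among 13 genes of the aliphatic branch, built from methionine, 0 were called by edgeR or DESeq2, and 12 were below 0 (median -0.52). Of these 13, 8 had an unadjusted edgeR p under 0.05, where 28.2% of all genes did. SOT17, an aliphatic sulfotransferase, had the smallest p of these (log2 fold change -0.53, edgeR adjusted p = 0.114). Without WT replicate 2, 9 of the 13 were called, against 14.3% of all genes in that fit, and the median was -0.73. Without WT replicate 1, 0 were called by edgeR and the median was -0.24.

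**Figure D4:**
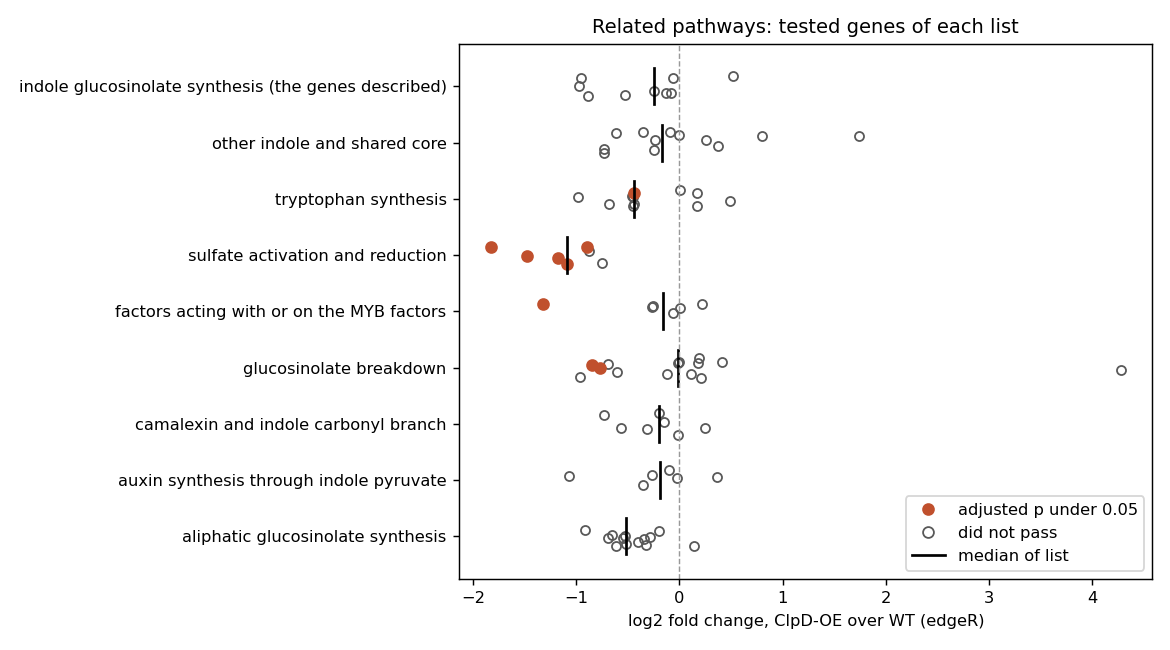
Log2 fold change of ClpD-OE over WT (x axis) for the tested genes of the described set and of 8 related lists (y axis), with filled points for an edgeR adjusted p under 0.05 and a bar at each list's median. The sulfate genes all lie below 0, and the point furthest right is BGLU22 at 4.28, a gene of at most 2.30 CPM.

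Genes that supply activated sulfate and tryptophan were counted in the same way. Of 7 genes of sulfate activation and reduction, 5 were called lower and 0 higher, where 3.91% of all tested genes were called lower, and the median was -1.09. The count was 7 in DESeq2, which called 6.10% of all genes lower. It was 4 with DESeq2 size factors, with no filter on low counts, or with at least 1 CPM in 2 libraries. APS1, at an edgeR adjusted p of 0.0499 in the main fit, lost its call in each of these settings (adjusted p = 0.0524, 0.0504 and 0.0501). The median was -0.95 or -1.23 without WT replicate 1 or 2. All 7 genes had an unadjusted edgeR p under 0.05 in the main fit, where 28.2% of all genes did. APR1, APR2 and APR3, which encode reductases that draw activated sulfate toward cysteine, had log2 fold changes of -1.83, -1.18 and -1.48 (edgeR adjusted p = 0.0221, 0.0188 and 0.0193). APS3, an ATP sulfurylase gene, was at -1.09 (adjusted p = 0.0472) and lost its call, at an adjusted p of 0.133, when WT replicate 1 was dropped. APK1 and APK2, whose kinases make the sulfate donor PAPS used by SOT16, did not pass in edgeR (log2 fold changes -0.75 and -0.88, adjusted p = 0.0638 and 0.0816). DESeq2 called both lower (adjusted p = 0.00728 and 0.00547). APK1 had 40.9 and 37.2 CPM in ClpD-OE and 76.3 and 54.7 CPM in WT, and APK2 had 60.7 and 57.1 CPM in ClpD-OE and 134 and 82.6 CPM in WT.

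Of 11 tryptophan synthesis genes, 1 was called lower and 0 higher, and the median was -0.44. The share called, 9.09%, is close to the 8.19% of all tested genes. The unadjusted edgeR p was under 0.05 for 6 of the 11, against 28.2% of all genes. The called gene was TSA1, the alpha subunit of tryptophan synthase, with 49.2 and 47.3 CPM in ClpD-OE and 65.8 and 65.2 CPM in WT (log2 fold change -0.44, SE 0.0791, edgeR adjusted p = 0.0391). TSA1 lost its call when WT replicate 1 was dropped (adjusted p = 0.0989) and on library totals (-0.22, adjusted p = 0.131), where PAI1 was called higher instead (0.71, adjusted p = 0.0298). Without WT replicate 2, 4 of the 11 genes were called, against 14.3% of all genes in that fit, and without WT replicate 1 it was 0.

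Of 6 factors that act with or on the MYB factors, 1, MYC2, was called lower and 0 were called higher. Over all genes tested, 3.91% were called lower and 4.29% higher. The unadjusted edgeR p was under 0.05 for 2 of the 6, against 28.2% of all genes. MYC2, a jasmonate-responsive factor that binds the promoters of glucosinolate genes, had 113 and 93.1 CPM in ClpD-OE and 325 and 190 CPM in WT (log2 fold change -1.32, SE 0.267, edgeR adjusted p = 0.0481). With WT replicate 1 dropped it was at -0.89 and lost its call (adjusted p = 0.0540). Its partners MYC3 and MYC4 did not pass, at 0.0054 and -0.27 (adjusted p = 0.976 and 0.407).

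Of 14 tested genes of glucosinolate breakdown, 2 were called lower and 0 higher by edgeR, with a median of -0.0099. Over all genes tested, edgeR called 8.19%, with 3.91% lower and 4.29% higher. The unadjusted edgeR p was under 0.05 for 5 of the 14, against 28.2% of all genes. TGG1, a myrosinase, had 1010 and 968 CPM in ClpD-OE and 1800 and 1580 CPM in WT (log2 fold change -0.77, SE 0.0939, edgeR adjusted p = 0.0231). NSP5, a nitrile-specifier protein gene, had 55.6 and 58.0 CPM in ClpD-OE and 101 and 104 CPM in WT (log2 fold change -0.85, SE 0.0799, edgeR adjusted p = 0.0188). Without WT replicate 1 or 2 the median of the list was -0.027 or 0.0073. On the same list, TGG2 and PYK10 had log2 fold changes of -0.0083 and -0.012 (edgeR adjusted p = 0.963 and 0.945). BGLU22, a beta-glucosidase gene with 22 and 57 counts in ClpD-OE and 3 and 0 counts in WT, did not pass in edgeR (adjusted p = 0.0666). BGLU22 passed the filter on low counts through its ClpD-OE libraries alone. It was called higher by DESeq2 (adjusted p = 0.00500), on library totals (adjusted p = 0.0377) and with the replicate number as a block (adjusted p = 0.0218). Its relative BGLU21, with 8 and 67 counts in ClpD-OE and 0 in both WT libraries, was removed by the filter in edgeR and called higher by DESeq2 (adjusted p = 0.00149). PEN2, the myrosinase that acts on the products of CYP81F2 in defence, had 562 and 415 CPM in ClpD-OE and 401 and 446 CPM in WT (log2 fold change 0.21, edgeR adjusted p = 0.459). The groups overlapped for PEN2, and ClpD-OE replicate 1 was again the highest library.

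The other routes out of the aldoxime and of tryptophan were counted in the same way. By edgeR, 0 of 7 tested camalexin and indole carbonyl genes and 0 of 6 tested auxin synthesis genes were called. The unadjusted edgeR p was under 0.05 for 1 and 0 genes, against 28.2% of all genes. DESeq2 called 1 and 0, against 11.1% of all genes. GSTF6, a glutathione transferase linked to camalexin, had 128 and 73.7 CPM in ClpD-OE and 174 and 161 CPM in WT (log2 fold change -0.73, edgeR adjusted p = 0.143, DESeq2 adjusted p = 0.0427). TAR2, an aminotransferase of the indole pyruvate route to auxin, had a log2 fold change of -0.27 (edgeR adjusted p = 0.218). PAD3, the last enzyme of camalexin synthesis, stood at 1.40 and 1.21 CPM in ClpD-OE and at 1.43 and 1.21 CPM in WT.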

How the data were processed

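Whole seedlings were measured by RNA-seq in 2 ClpD-OE and 2 WT libraries, grouped by their titles. The submitters' processing notes name RSEM, HISAT2, StringTie 1.3.1, DESeq2, Bowtie2 2.2.8 and fastp 0.18.0, with no roles, and the build TAIR10. The authors deposited 1 table. The authors' expected counts for each gene carry no normalization, and rounding them changed 0 values. Its FPKM were computed by the authors per length and depth. Its log2 fold change is the authors' ratio of mean FPKM, with a p-value and FDR from a test that the authors' file headers do not name. The sources used here do not say whether strand was used in counting.

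Genes were tested over the whole table with edgeR 4.0.16 in R 4.3.3 (TMM, filterByExpr, quasi-likelihood test, genotype as the only term, Benjamini-Hochberg over 18940 genes, called under 0.05). The SE was the log2 fold change divided by the square root of F. The script was tested on simulated data. Alternatives were DESeq2 1.42.0, other scalings and filters, the replicate number as a block, the newer quasi-likelihood fit, each library left out, and summed IGMT copies.

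Members and lists were chosen with earlier results of these data known. Named genes are the 10 members, CLPD, IGMT2 and, from each list, up to 4 called genes with the smallest p, or else the tested gene with the smallest p. APK1, APK2, APS1, MYC3, MYC4, IGMT3, IGMT4, PEN2, PAD3, PAI1, BGLU21 and BGLU22 were named outside that rule, after values were seen. The same holds for CYP81F4, NPF2.11, AAO1, SOT18, TGG2, PYK10 and the marker genes. Coding sequences came from RefSeq TAIR10.1 (10 of 10 loci matched), aligned with Biopython 1.88, and no coordinates are given because the build names differ.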

Additional observations from a re-analysis of the deposited data

How the results depend on the processing

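The log2 fold changes of MYB34, CYP79B3, CYP83B1, SUR1 and SOT16 stayed below 0 under all 12 alternatives tried. With library totals the median of all genes moved to 0.23, and MYB51, CYP79B2 and CYP81F2 turned to 0.087, 0.14 and 0.16, all below that shift. Genes called were then 3276 (2699 higher), or 17.3% of all genes tested. In that fit 1 of the 9 members was called lower, and 2 of the other indole genes (CYP81F4 and NPF2.11) and 1 camalexin gene (AAO1) higher. List medians were -0.026 for members, 0.061 for other indole genes, -0.22 for tryptophan and -0.87 for sulfate. They were 0.062 for the MYB-related factors, 0.21 for breakdown, 0.024 for camalexin and 0.045 for auxin. DESeq2 called 11.1% of all genes, with 1195 genes lower. Among genes that edgeR tested, it called 3 members, 2 other indole genes, 2 for tryptophan, 1 for camalexin and 5 for breakdown. Of those for breakdown, BGLU22 was higher. DESeq2 also called BGLU21 higher, which edgeR did not test. With the replicate number as a block, edgeR called 3513 genes (1628 higher, 1885 lower), or 18.5% of all genes tested. Among them were 3 members (SOT16, CYP79B3 and CYP83B1, edgeR adjusted p = 0.00184, 0.00717 and 0.0136). There were also 5 other indole genes, 6 for tryptophan, 5 for breakdown, 1 for camalexin and 4 aliphatic genes. The replicate differences of the 2 genotypes correlated at 0.265 across genes, but nothing in the labels pairs the libraries.

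Leaving out 1 library gave 0 to 2781 called genes (0 to 1179 higher, 0 to 1602 lower), with 0 when either ClpD-OE library was left out, 524 without WT replicate 1 and 2781 without WT replicate 2. A lone library was assumed to vary like the other group. Ranges were 0 to 3 called and medians of -0.70 to -0.23 for members, 0 to 2 and -0.23 to -0.029 for other indole genes, 0 to 4 and -0.48 to -0.25 for tryptophan, 0 to 7 and -1.29 to -0.83 for sulfate, 0 to 1 and -0.23 to -0.044 for MYB-related factors, 0 to 6 and -0.075 to 0.0073 for breakdown, -0.25 to -0.076 for camalexin, and 0 to 9 and -0.73 to -0.24 for aliphatic genes. Single genes ranged from -0.27 to 0.0092 for MYB51, -0.27 to 0.12 for CYP79B2, -0.83 to 0.44 for CYP81F2 and -0.15 to 0.97 for IGMT1. The causes were not tested.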

Other observations

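Several of these genes lie beside related genes, as locus order in the RefSeq TAIR10.1 annotation shows. CYP79B2 and APK2 are direct neighbours, with log2 fold changes of -0.086 and -0.88. SOT16 and SOT18 are also direct neighbours, at -0.97 and -0.34, and SOT18 (31.7 and 32.2 CPM in ClpD-OE, 45.6 and 35.1 CPM in WT) was not called by edgeR (adjusted p = 0.205). MYB51 and SOT17 are parted by 1 gene, at -0.13 and -0.53. No difference between neighbours was tested.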
